A study of Mus musculus with 4 samples.

Results

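Cytosolic ribosomal protein genes encode the proteins of the large and small ribosomal subunits. They were chosen by symbol as Rpsa, Rplp0, Rplp1 and Rplp2, or as Rpl or Rps followed by digits and at most 1 of the letters a, x or l, which gave 83 of the 53715 genes in the files. By role, 30 belong to the small subunit, 43 to the large subunit and 3 to the stalk, and 7 are copies of another member (Rpl3l, Rpl10l, Rpl39l, Rps27l, Rps4l, Rpl32l and Rpl6l). Pseudogene rows with -ps in the symbol and the S6 kinase genes were left out. The genes were measured by single-nucleus RNA sequencing of inguinal white adipose tissue, a fat depot under the skin near the hind limb, from C57BL/6N mice aged 6 months. Of 4 libraries, 2 carry the genotype label WT and 2 the label PTRF knockout, and the titles name a different mouse for each. Cavin1 is the current symbol of the gene for PTRF, a protein that coats caveolae, the small pits of the plasma membrane. The labels do not give the sex, the allele or whether the deletion was limited to a cell type, and strain and age were the same in both groups.

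A ribosome holds 1 copy of nearly every ribosomal protein, so cells make these proteins in near-equal numbers, and their mRNAs are among the most abundant in the cytoplasm. The stalk proteins, of which Rplp0 is the base and Rplp1 and Rplp2 are the arms, recruit the elongation factors. The mRNAs begin with a C followed by a tract of C and T, the 5′ terminal oligopyrimidine (TOP) tract, through which mTORC1 and the binding protein Larp1 set how strongly they are translated. Nuclei hold newly made RNA and only what mature mRNA clings to them, so counts from nuclei need not follow the cytoplasmic pool.

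The window of 15 bases on each side of the annotated start holds a run of C and T in many members. Runs were counted anywhere in the window, not only at the first base of the mRNA. In Rps27l, for example, the run of 9 bases begins at position -12 and lies wholly before the annotated start. RefSeq promoter records (GRCm38.p6) matched 61 of the 83 genes, and an unbroken run of at least 8 bases of C or T was present in 27 of them (44.3%), against 13.9% of 27025 genes with a record. The letters CTTTC, read 5′ to 3′ in the direction of the gene, were in 17 of 61 members (27.9%) and in 4.76% of all genes, while the same letters on the opposite strand were in 3.28% of members and 4.21% of all genes. CTCTTT, which overlaps that motif in part, was in 13.1% of members and 1.33% of all genes. The windows below are written 5′ to 3′ in the direction of the gene with the longest run of C and T in capitals. They show the member with the longest run (Rpl7a), 3 with high summed counts (Rplp2, Rps24 and Rpsa), the one with the largest difference by label in all nuclei (Rps10), the copies Rps27l and Rpl39l with their parents, the copy Rpl3l alone, and 2 of the 5 members whose counts followed the rest least over classes and libraries (Rps6 and Rpl15).

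Rpl7a (chr2:26910792-26910821, plus strand): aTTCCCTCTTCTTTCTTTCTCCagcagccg
Rplp2 (chr7:141447636-141447665, plus strand): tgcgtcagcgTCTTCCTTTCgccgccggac
Rps24 (chr14:24490663-24490692, plus strand): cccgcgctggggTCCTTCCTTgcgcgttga
Rps10 (chr17:27635230-27635259, minus strand): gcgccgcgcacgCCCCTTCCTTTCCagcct
Rps27 (chr3:90213634-90213663, minus strand): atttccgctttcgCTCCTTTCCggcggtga
Rps27l (chr9:66946071-66946100, plus strand): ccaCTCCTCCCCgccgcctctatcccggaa
Rpl39 (chrX:37085208-37085237, minus strand): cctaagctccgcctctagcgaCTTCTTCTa
Rpl39l (chr16:10170213-10170242, plus strand): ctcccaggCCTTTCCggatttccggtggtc
Rpl3l (chr17:24727811-24727840, plus strand): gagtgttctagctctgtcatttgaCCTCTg
Rpsa (chr9:120127751-120127780, plus strand): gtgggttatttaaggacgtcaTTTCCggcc
Rps6 (chr4:86857353-86857382, minus strand): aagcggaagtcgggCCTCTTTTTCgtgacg
Rpl15 (chr14:18270972-18271001, minus strand): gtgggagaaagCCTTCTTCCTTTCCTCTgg

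The run was longest in Rpl7a at 21 bases and was 9 bases in Rps24, 7 in Rpl39l and 5 in Rpsa and Rpl3l. A match describes letters near an annotated start and was not tied to any count here.

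The 4 libraries held 6664 to 15887 nuclei after filtering and 8623219 to 34819482 UMIs (unique molecular identifiers, 1 per captured RNA molecule). The shallowest is the second labelled WT and the deepest the second labelled knockout. Cavin1, the targeted gene, went against the labels: it had 40 and 9 UMIs in the libraries labelled WT 1 and 2 and 730 and 1759 in those labelled knockout 1 and 2. The file names also carry the opposite genotype, so groups are named here by their labels, and every direction by label is that of the labelled groups. Pairs of libraries shared 53 to 150 cell barcodes. Clustering without the ribosomal protein, pseudogene and mitochondrially encoded genes gave 19 clusters, of which 12 fell into 9 classes named for a cell type by their markers alone. Of the rest, 6 clusters led by Gm10800 made up 14.4% to 44.9% of the nuclei of a library and stayed unnamed.

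Ribosomal protein genes took 0.452% and 0.273% of the UMIs in the libraries labelled WT 1 and 2, and 0.449% and 0.545% in those labelled knockout 1 and 2. The mean was 0.362% ± 0.126 (SD, n = 2) in the group labelled WT and 0.497% ± 0.0677 (SD, n = 2) in the group labelled knockout. The groups did not separate cleanly, since WT 1 lay just above knockout 1. Counting intervals (95%, exact binomial) were narrow, 0.449% to 0.454% for WT 1, and cover counting error only. Without luminal nuclei the 2 means were 0.274% and 0.365%.

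Of the 83 members, 79 passed the filter on low counts in the sum over all nuclei. Levels between genes are given per kilobase of exon, as CPM (UMIs scaled to library size by TMM) divided by the merged length of all annotated exons, averaged over 4 libraries. A UMI counts a molecule whatever its length, so this scale favours genes with short exon models. Rps24, for example, ranked 1 by CPM and 32 per kilobase. On that scale Rplp1, an arm of the stalk, stood highest at 353 CPM per kb, followed by Rps21 at 143, Rps15 at 142, Rpl38 at 119 and Rpl17 at 92.8. Rps21 and Rps15 differed by less than the spread between libraries. By CPM alone Rps24, Rplp1, Rpsa and Rplp2 were among the highest. Rps24, a small-subunit protein, had 195, 105, 180 and 237 CPM in the order WT 1, WT 2, knockout 1, knockout 2. Rplp1 had 203, 81.2, 195 and 225 CPM and Rpsa 139, 71.5, 144 and 217. In each of these 3 genes the library labelled WT 2 was lowest and knockout 2 highest. Rplp2, the other arm, had 163, 58.6, 127 and 145 CPM, and Rplp0, the base, 56.4, 26.2, 38.7 and 77.2.

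**Figure D1:**
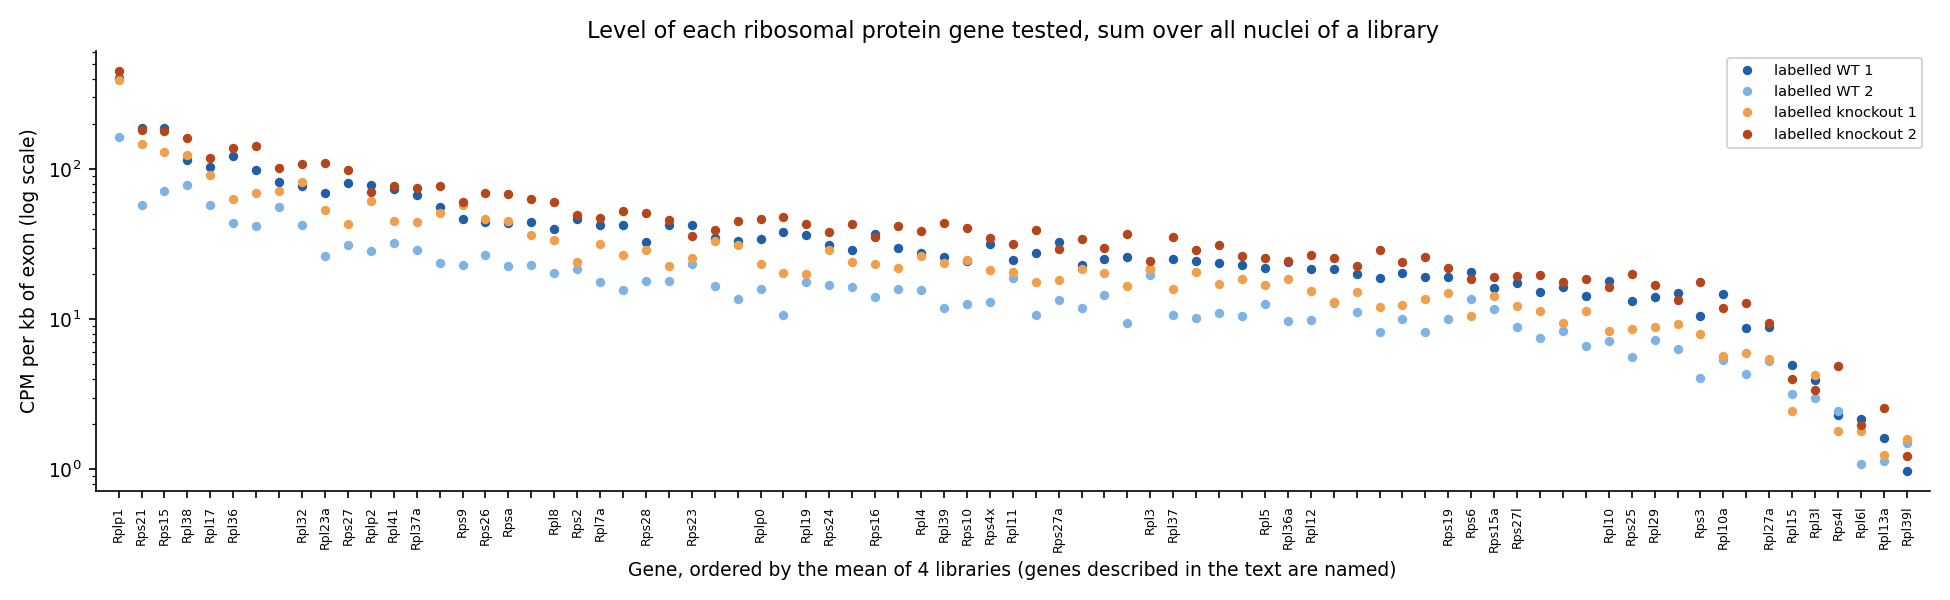
Level of each of the 79 ribosomal protein genes tested (y axis, CPM per kb of exon, log scale), summed over all nuclei of a library, 1 point per library, ordered by the mean, with names for genes the text describes. The library labelled WT 2 is lowest for 75 of the 79 genes, and Rpl15, Rpl3l, Rps4l, Rpl6l, Rpl13a and Rpl39l form the low end at under 4 CPM per kb on average.

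The library labelled WT 2 was lowest for 75 of the 79 members and knockout 2 highest for 65, while the order of members was alike in every library. Spearman correlations of CPM over the 79 genes were 0.941 to 0.946 between WT 1 and the other libraries, a description across genes that share a library and its depth. Over the same genes, the Spearman correlation of mean CPM was 0.199 with exon length and 0.17 with gene length. By sequence, 57 members had no near-identical gene (at least 95% identity over most of the member's transcript) in the annotation. Rpl7a had 32, Rps2 22, Rpl23a 16 and Rps6 10. The rule is one-sided: Rpl6 and Rpl32 are among the 57, though the copies Rpl6l and Rpl32l match them by the same rule. A member with no near-identical gene here can thus still have a close copy. Counts of genes with copies can be split between the copies by the counting.

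The members Rpl13, Rpl24 and Rpl13a had few or no counts, and each overlaps another gene in the annotation. Rpl13, a large-subunit protein, had 0 UMIs in every library, which allows up to 0.0862 to 0.348 CPM (3 counts of a library's total). Gm20388, annotated as protein coding across the same stretch and strand, had 16946, 10777, 17246 and 22813 UMIs in WT 1, WT 2, knockout 1 and knockout 2, and 6 near-identical pseudogenes of Rpl13 had 7 to 70 UMIs each over all libraries. Rpl24 (chr16:55966275-55971435, plus strand) had 1, 0, 2 and 5 UMIs, and Gm28037, a transcript overlapping it on the same strand, had 98, 51, 53 and 115. Rpl13a, a protein with a described role in silencing inflammatory mRNAs, had 3.44, 2.39, 2.62 and 5.44 CPM, and its overlapping gene Gm45713 had 38 UMIs in all. Rpl19, which also overlaps a gene on its strand (Gm11629, with 157 UMIs in all), was not low, at 29.9 CPM on average. Whether reads from shared exons were dropped in counting was not tested.

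Copies were low beside their parent genes. Rpl3l, the muscle form of Rpl3, had 6.42, 4.89, 6.95 and 5.51 CPM, and per kb of exon its mean was 3.62, against 21.8 for Rpl3. Rpl39l, known from testis, had 1.09 CPM on average and 1.32 per kb, against 26.2 per kb for Rpl39. Rps4l, annotated as a transcribed processed pseudogene, stood at 2.84 per kb against 25.1 for Rps4x. Rps27l, which is also a p53 target, had 14.2, 7.28, 10.0 and 15.9 CPM and 14.5 per kb, against 63.1 per kb for Rps27. By mean CPM alone these copies were lower too, at 5.94 (Rpl3l), 1.09 (Rpl39l), 2.68 (Rps4l) and 11.9 (Rps27l). Their parents had 69.4 (Rpl3), 37.6 (Rpl39), 41.0 (Rps4x) and 65.8 (Rps27). Rpl10l had 1 or 2 UMIs and Rpl32l 0 UMIs in every library, while Rpl10 had 36.8, 14.8, 17.0 and 33.6 CPM. Rpl36a stood at 19.1 CPM per kb.

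Classes of nuclei differed in the share of UMIs from ribosomal protein genes more than the 2 labels did. The mean over 4 libraries was highest in luminal epithelial-like nuclei (0.865% ± 0.394, SD), the milk-duct lining of the mammary gland that lies in this fat pad, and lowest in adipocyte-like nuclei (0.194% ± 0.00556). T or NK-like nuclei stood at 0.615% ± 0.201, B-like at 0.557% ± 0.103, vascular endothelial-like at 0.472% ± 0.133 and dendritic-like at 0.426% ± 0.187. Macrophage-like nuclei stood at 0.320% ± 0.0679, myoepithelial-like at 0.268% ± 0.0635 and progenitor-like at 0.254% ± 0.0805. Neighbours in this order overlapped across libraries, and the 2 ends did not overlap each other: the lowest luminal value, 0.420% in WT 2, lay above the highest adipocyte value, 0.199%. The full order of means did not hold in any single library, and in WT 2 both ends moved as well. There B-like nuclei (0.461%) stood above luminal-like, and progenitor-like (0.152%) and myoepithelial-like (0.180%) stood below adipocyte-like (0.199%). Luminal-like nuclei came from 3 clusters, and the library labelled WT 1 drew 2001 of its 3033 from a cluster that held 14 nuclei of WT 2. Within the cluster that held 410 to 815 nuclei of every library, the share was 0.773%, 0.442%, 0.822% and 1.25% in the order WT 1, WT 2, knockout 1, knockout 2.

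**Figure D2:**
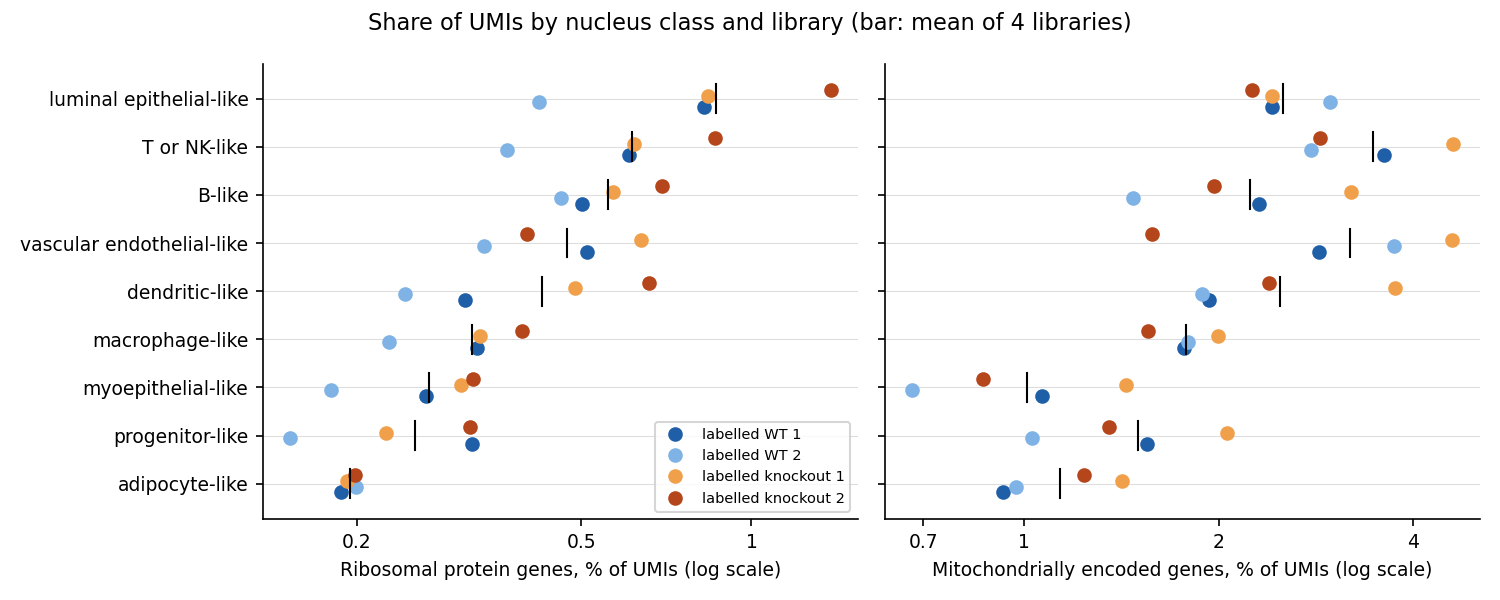
Share of UMIs from ribosomal protein genes (left) and from mitochondrially encoded genes (right), in percent on log scales, for 9 classes of nuclei. Each point is a library and each bar the mean of 4 libraries. The adipocyte-like points lie together at 0.187% to 0.199%, while those of the luminal epithelial-like class run from 0.420% to 1.38%.

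The class order also followed the share of mitochondrially encoded RNA. Over the 36 points of class and library, the Spearman correlation of the 2 shares was 0.74, and within single libraries over 9 classes it was 0.65 to 0.90. The points share libraries and denominators. The correlation with median UMIs per nucleus was -0.03 over the 36 points. Mean mitochondrial shares ran from 1.01% in myoepithelial-like and 1.14% in adipocyte-like nuclei to 3.46% in T or NK-like nuclei. In nuclei with at most 2% of mitochondrial UMIs, the mean luminal share was 0.681% and the mean adipocyte share 0.175%, so both ends of the order of means kept their place.

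Each class was tested against the mean of the other 8 with edgeR's quasi-likelihood test on UMIs summed per library and class, over 15074 genes that included 74 members. Adjusted p-values are Benjamini-Hochberg values over all 15074 genes, with a threshold of 0.05. In luminal epithelial-like nuclei all 74 members tested were higher (30.0% of all genes were called higher), with a median log2 difference of 1.33 against 0.02 for all genes. Rpl37, a large-subunit protein, was higher by 1.73 (SE 0.16, adjusted p = 1.74e-14). Rplp1 had 430, 187, 501 and 543 CPM in luminal-like nuclei of WT 1, WT 2, knockout 1 and knockout 2, against 76.5, 75.4, 80.7 and 75.2 in adipocyte-like nuclei, so each luminal value lay above each adipocyte value. The smallest was that of Rpl3 (0.66, SE 0.15). Rps6, the S6 kinase substrate, was higher by 0.93 (SE 0.19, adjusted p = 3.54e-05) and Rps19, the gene first linked to Diamond-Blackfan anaemia, by 0.92 (adjusted p = 9.61e-07). With DESeq2 size factors the median of all genes moved to -0.17 and that of the members to 1.14, and all 74 were again called higher.

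In adipocyte-like nuclei 64 of 74 members were lower and 0 higher (18.0% of all genes were called lower and 22.7% higher), with a median of -0.90 against 0.03 for all genes. By subunit, 25 of 30 small-subunit, 37 of 40 large-subunit and 2 of 3 stalk genes were lower, and the exception among the stalk genes was Rplp2 (-0.15, SE 0.16, adjusted p = 0.51). Rps4x fell by 1.43 (SE 0.23), and Rpsa, also known as the laminin receptor, fell by 1.31 (SE 0.19) at 49.6, 58.8, 58.6 and 70.2 CPM in the 4 libraries. Rpl5, which with Rpl11 can hold Mdm2 in check, was also lower (-0.77, SE 0.19, adjusted p = 0.000577), while Rpl11 stood at -0.30 (SE 0.18, adjusted p = 0.178). Rps27a, made as a fusion with ubiquitin, and Rpl41, the shortest member, were lower at -0.68 (SE 0.22) and -0.51 (SE 0.20). The 3 members above 0 did not pass the test: Rps27l at 0.41 (SE 0.27, adjusted p = 0.247), Rps2 at 0.28 (SE 0.17) and Rpl36 at 0.22 (SE 0.27), which stood at -0.06 without the library term and at -0.24 without WT 2. The libraries of Rps2 did not lie together, with 89.3, 53.9, 40.2 and 98.5 CPM.

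Other genes of the translation machinery and of mitochondria did not all go the same way in adipocyte-like nuclei. Over all genes tested there, 22.7% were called higher and 18.0% lower. Of 16 translation factors and other TOP mRNAs, 5 were lower and 2 higher, with Tpt1 at -1.29 (SE 0.18) and Eef2, the elongation factor that moves the ribosome, at -0.86 (SE 0.18). Of 5 relatives of the members outside the naming rule, 4 were lower, led by Rack1, a scaffold on the small subunit, at -1.33 (SE 0.18). Of 52 mitochondrial ribosomal protein genes, 16 were higher and 1 lower, and of 79 nuclear genes of oxidative phosphorylation 55 were higher and 0 lower. The median of that last list was 0.76, against -0.90 for the cytosolic ribosomal protein genes. Of 15 mitochondrially encoded genes, 11 were lower and 0 higher. Eif4ebp1, which holds back cap-dependent translation when mTORC1 is off, was higher by 2.31 (SE 0.19), 1 of 5 higher among 12 genes of mTORC1 and translation control. Nuclear-retained RNAs, a sign of how much of the RNA is nuclear, had 3 of 5 higher and 1 lower, with Neat1 at 1.17 (SE 0.16) and Malat1 at 0.78 (SE 0.14). Their part in the members' difference was not tested.

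In luminal-like nuclei, where 30.0% of all genes were called higher, 13 of 16 TOP mRNAs, 5 of 5 relatives, 48 of 79 oxidative phosphorylation genes and 8 of 15 mitochondrially encoded genes were higher. The 20 of 52 mitochondrial ribosomal protein genes called higher (38.5%) were nearer to that background. Oxidative phosphorylation had 3 genes lower and the mitochondrially encoded genes 2. Genes of mTORC1 and translation control had 5 of 12 higher and 1 lower, and nuclear-retained RNAs 2 of 5 higher and 1 lower. Ribosome assembly genes had 12 of 25 higher there, among them Npm1 (1.10, SE 0.14) and Ncl (0.96, SE 0.13), 2 major proteins of the nucleolus, against 4 higher and 2 lower in adipocyte-like nuclei. Myc, a transcription factor that drives ribosome assembly genes in many cells, was higher by 1.87 (SE 0.18).

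Lymphoid-like nuclei came next. In T or NK-like nuclei 43 of 74 members were higher and 0 lower (22.4% of all genes were called higher), with a median of 0.48. Rps15a (1.07, SE 0.14), Rpsa (0.93, SE 0.16) and Rpl12 (0.90, SE 0.15) led, and Rps15a had 178, 120, 159 and 202 CPM. Without the library labelled knockout 2 the count was 15 and without WT 1 it was 24. All 15 mitochondrially encoded genes tested were higher in the same nuclei (median 1.01) and 4 of 5 nuclear-retained RNAs were lower (median -0.69), and their part in the members' difference was not tested. In B-like nuclei 15 of 74 were higher (19.7% of all genes were called higher), among them Rps15a (1.005, SE 0.15) and Rps16 (0.86, SE 0.26), so this count is near the background. Without knockout 2 the count was 7. Nuclear-retained RNAs were lower in 4 of 5 cases there too (median -0.75), while 4 of 15 mitochondrially encoded genes were higher and 2 lower. Rps27l was at -0.71 (SE 0.38, adjusted p = 0.142) in B-like and -0.47 (SE 0.33) in T or NK-like nuclei.

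Progenitor-like, myoepithelial-like and macrophage-like nuclei had members called lower and 0 called higher. In progenitor-like nuclei, the cells from which fat cells form, 44 of 74 members were lower and 0 higher (11.2% of all genes were called lower), with a median of -0.62. Rplp0 fell by 1.35 (SE 0.23, adjusted p = 2.78e-06) and had 25.8, 9.17, 9.67 and 23.2 CPM, with WT 1 and knockout 2 high and the other 2 libraries low. In myoepithelial-like nuclei, the contractile layer of the mammary ducts, 39 of 74 were lower (16.1% of all genes were called lower), among them Rpsa (-1.08, SE 0.21). Rpl10a (0.37, SE 0.24), Rpl3 (0.29, SE 0.18) and Rpl27a (0.13, SE 0.27) were the most positive there, and none of the 3 passed. In macrophage-like nuclei 11 of 74 were lower (10.2% of all genes were called lower), a share near the background, among them Rps23 (-0.75, SE 0.27, adjusted p = 0.0317) and Rplp1 (-0.51, SE 0.19, adjusted p = 0.0465). The call of Rps23 was lost with at least 1000 UMIs and 500 genes, with at most 2% mitochondrial UMIs, without the library term, without nuclei of 5000 UMIs or more, and without knockout 1 or knockout 2 (edgeR adjusted p = 0.066 to 0.204). Rpl15 (-0.996, SE 0.51) and Rpl27a (-0.78, SE 0.32) stood lower still without passing the test. Among nuclei with at most 2% mitochondrial UMIs these counts were 8, 10 and 1 of 73, against 50 of 73 lower in adipocyte-like and 73 of 73 higher in luminal-like nuclei. Leaving out a library gave 21 to 37 for progenitor-like nuclei (21 without knockout 1 and 26 without knockout 2), 15 to 36 for myoepithelial-like nuclei (15 without WT 1 and 15 without knockout 2) and 4 to 7 for macrophage-like nuclei.

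Dendritic-like nuclei, which carry Ccr7 and Fscn1, had 11 members higher and 1 lower (15.9% of all genes were called higher and 16.2% lower). Rpsa led with 1.29 (SE 0.18, adjusted p = 1.23e-08) at 205, 121, 421 and 570 CPM, so both libraries labelled knockout lay above both labelled WT. Rps19 followed at 1.21 (SE 0.19), and Rpl4 was lower at -0.98 (SE 0.30, adjusted p = 0.00831), a call lost without WT 2 (edgeR adjusted p = 0.0519). Rps27l stood at 0.97 (SE 0.41, adjusted p = 0.0621), the opposite side from its B-like value. Without knockout 2 the count of higher members was 6, and with at most 2% mitochondrial UMIs it was 5. The vascular endothelial-like cluster also had the lymphatic endothelial markers Mmrn1, Prox1, Flt4 and Reln among its leading genes, so it can hold both kinds of endothelium. In vascular endothelial-like nuclei 1 member was higher, Rps21 (0.71, SE 0.22, adjusted p = 0.0149), and 2 were lower, Rps19 (-0.83, SE 0.28) and Rpl17 (-0.72, SE 0.25), where 9.93% of all genes were called higher and 8.09% lower. Rps21 stood at -0.03 among nuclei with at most 2% mitochondrial UMIs and at -0.04 at clustering resolution 0.5. At that resolution the class was a much larger set, 2733 nuclei with a median of 663 UMIs against 564 with a median of 1263.5. The call of Rps21 was also lost with no filter on low counts, with at least 1000 UMIs and 500 genes, without the library term, and without WT 1, WT 2 or knockout 1 (edgeR adjusted p = 0.0722 to 0.256). The calls of Rps19 and Rpl17 were lost by DESeq2, without the library term and without knockout 2, and that of Rps19 also without WT 2 and without nuclei of 5000 UMIs or more. DESeq2 called 3 members higher and 0 lower, and without knockout 2 the counts were 7 and 0.

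**Figure D3:**
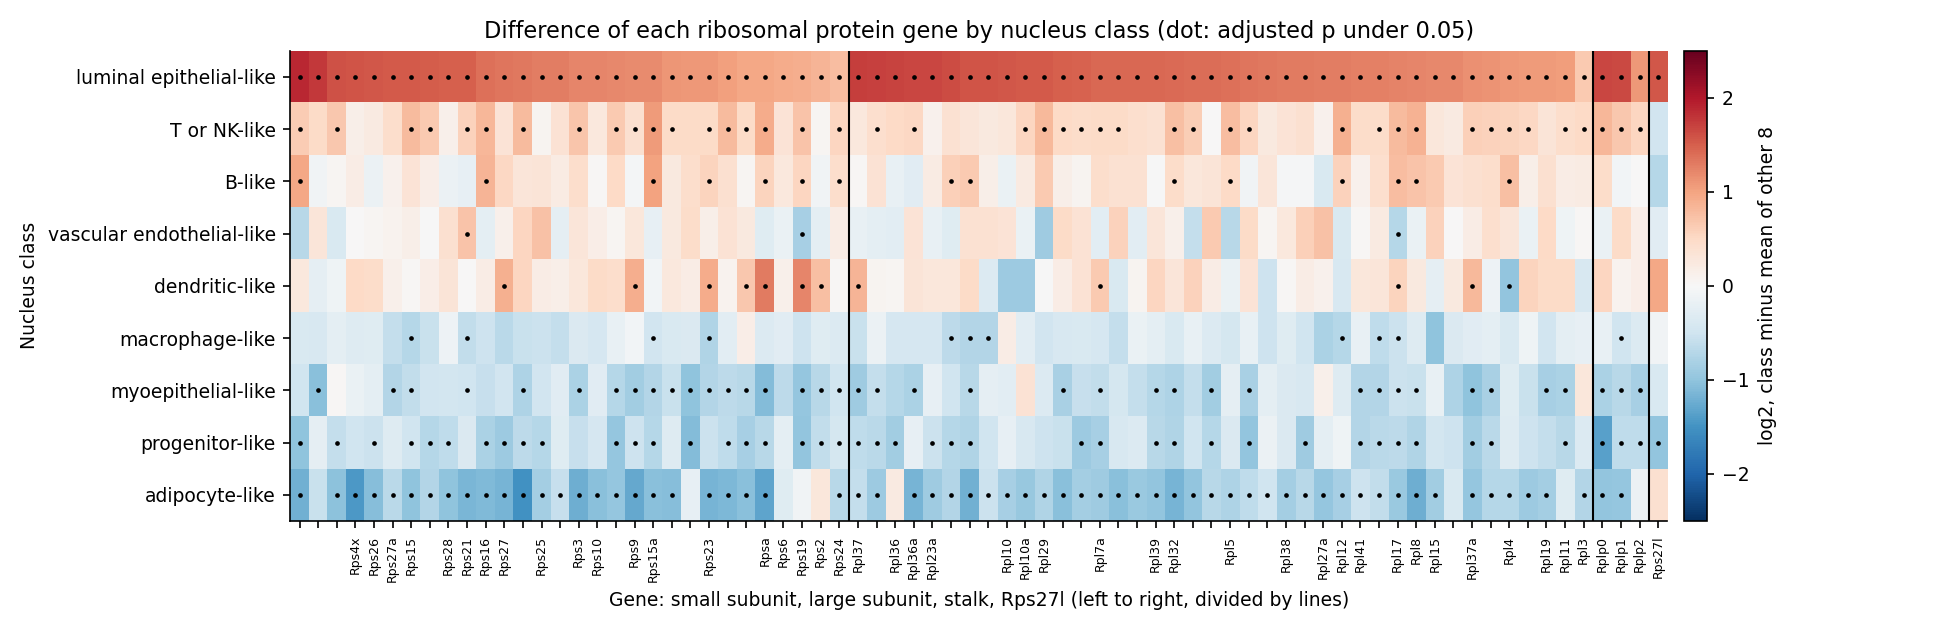
Log2 difference of each of 74 ribosomal protein genes (columns, grouped as small subunit, large subunit, stalk and Rps27l) in each class of nuclei (rows) against the mean of the other 8 classes, with names for genes the text describes. Dots mark adjusted p-values under 0.05. All 74 columns are higher in the luminal epithelial-like row, and 64 are lower in the adipocyte-like row.

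Members moved together across classes and libraries to different degrees. Each member's log2 CPM was set against the summed CPM of the other members over the 36 points of class and library, a description of points that share libraries. The median correlation was 0.809, and 40 of 74 members reached 0.8. Rps15 (0.932), Rplp1 (0.915) and Rpl7a (0.907) had the highest values, and Rps6 (0.182), Rpl29 (0.385), Rpl3 (0.408), Rpl15 (0.455) and Rps2 (0.475) the lowest. Over the means of the 9 classes the lowest were instead Rps27l (0.416), Rpl10a (0.556), Rpl4 (0.592), Rps6 (0.599) and Rpl29 (0.60), with Rpl15 at 0.797 and Rps2 at 0.671. Rps6, Rpl3 and Rps2 have 10, 7 and 22 near-identical genes, and Rpl15 has none by the one-sided rule. Rpl7a, with 32, was among the most highly correlated. Over the 36 points Rps6, Rpl29, Rpl3, Rpl15 and Rps2 averaged 25.6, 12.3, 69.6, 9.57 and 61.7 CPM. Some sums came from few nuclei, such as 77 vascular endothelial-like nuclei in knockout 1. The part of counting error in these correlations was not tested. Rps6 had 26.4, 15.9, 17.1 and 18.9 CPM in adipocyte-like and 47.5, 36.7, 33.2 and 51.6 CPM in luminal-like nuclei, a gap that held in each library. Its differences in adipocyte-like (-0.31, SE 0.21) and progenitor-like nuclei (-0.25, SE 0.24) did not pass the test.

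The balance of the subunits was similar in most classes. The summed CPM of large-subunit genes divided by that of small-subunit genes was 0.987 ± 0.0362 (SD, n = 4) in adipocyte-like, 0.961 ± 0.0711 in luminal-like and 0.953 ± 0.0711 in progenitor-like nuclei. It was lowest in dendritic-like nuclei at 0.758 ± 0.0634, with all 4 libraries between 0.689 and 0.826, but the ratio had no test.

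Within adipocyte-like and luminal-like nuclei, the share differed with how many UMIs a nucleus had. In adipocyte-like nuclei with 500 to 700 UMIs ribosomal protein genes took 0.308%, 0.229%, 0.317% and 0.504% of UMIs in WT 1, WT 2, knockout 1 and knockout 2. In those with 2500 to 5000 UMIs the shares were 0.150%, 0.158%, 0.125% and 0.201%. The share was thus lower in the deeper nuclei of every library. In luminal-like nuclei the shares were 0.607%, 0.424%, 0.742% and 0.949% in the lower bin and 0.848%, 0.380%, 0.791% and 1.10% in the upper. They were higher in the deeper nuclei of every library except WT 2. The near-equal adipocyte sums hide a difference: in each of these bins knockout 2 was highest, and that library also held 813 of the adipocyte-like nuclei with 5000 or more UMIs, where its share was 0.147%. Leaving out nuclei of 5000 UMIs or more raised the mean adipocyte share from 0.194% to 0.217%.

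**Figure D4:**
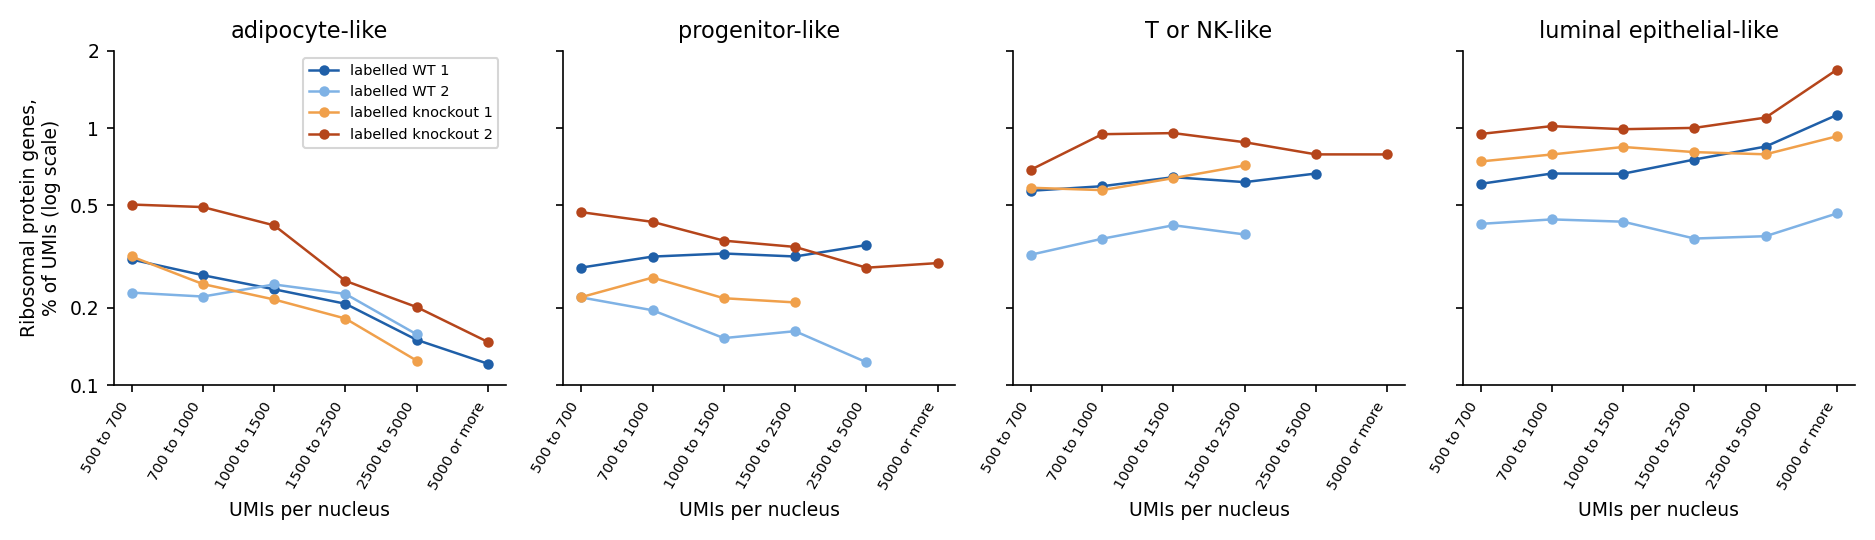
Share of UMIs from ribosomal protein genes (y axis, percent, log scale) by UMIs per nucleus (x axis, 6 bins) in 4 classes, 1 line per library, for bins of at least 20 nuclei. Adipocyte-like lines fall from 0.229% to 0.504% in the lowest bin to 0.125% to 0.201% at 2500 to 5000 UMIs, while luminal epithelial-like lines stay at or above 0.372%.

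By label, 0 of the 79 members tested in all nuclei passed (0.103% of 28075 genes did), at an unadjusted p under 0.05 the count was also 0, and DESeq2 called 0. The median log2 difference, labelled knockout minus labelled WT, was 0.42 against 0.02 for all genes, and 74 of 79 lay above 0. This rested on single libraries: without WT 2 the median was -0.05 and without knockout 2 it was -0.03, while without WT 1 it was 1.10. In 6 members the groups did not overlap, all higher in the group labelled knockout, against 7.27% of all genes (Rpsa, Rps9, Rps10, Rps26, Rpl32 and Rpl38). The largest differences were those of Rps10 (0.83, SE 0.45), Rps3 (0.82, SE 0.44), Rpl39 (0.82, SE 0.44), Rpsa (0.77, SE 0.48) and Rpl23a (0.76, SE 0.45). The 3 lowest were Rpl15 (-0.33, SE 0.49), Rps6 (-0.24, SE 0.44) and Rpl10a (-0.19, SE 0.44), each within its error and each above 0 without WT 1. In sums over all nuclei, a different mix of nuclei and a different level per nucleus cannot be told apart. Among the other lists, 0 genes passed in all nuclei, with 1 gene, Rpl36al, at an unadjusted p under 0.05, and the medians were 0.23 for TOP mRNAs, 0.13 for oxidative phosphorylation and -0.21 for mitochondrially encoded genes.

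In adipocyte-like nuclei 0 of 76 members passed by label (0.452% of all genes did), with 0 at an unadjusted p under 0.05 and 0 by DESeq2. The median was -0.01, 37 of 76 lay above 0, and 8 members were higher and 11 lower with no overlap, where 12.6% and 11.7% of all genes were. Leaving out knockout 1 or knockout 2 gave medians of 0.22 and -0.20. Rps3 stood at 0.71 (SE 0.45) with 16.2, 6.92, 16.4 and 23.1 CPM, Rpl23a at 0.62 (SE 0.43), Rpl4 at 0.61 (SE 0.41), Rpl39 at 0.43 (SE 0.46) and Rpl3 at 0.36 (SE 0.40). Rpl15 stood at -0.996 (SE 0.68) with 4.22, 8.66, 1.47 and 4.18 CPM, Rpl36 at -0.55 (SE 0.42) and Rpl37a at -0.50 (SE 0.40). CPM in a comparison by label were scaled over the 4 sums of that class alone, so they differ from the CPM of the comparisons between classes. None of these 8 differences was larger than the spread between libraries by the test. The summed share was 0.193% ± 0.00832 and 0.196% ± 0.00429 (SD, n = 2) in the groups labelled WT and knockout. The range over the 4 libraries was 1.06-fold from lowest to highest, against 1.51-fold to 3.29-fold in the other classes. Without nuclei of 5000 UMIs or more it was 1.41-fold in adipocyte-like nuclei, with means of 0.201% and 0.233% in the groups labelled WT and knockout, and 1.48-fold in B-like nuclei.

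Progenitor-like nuclei also had 0 members called by label of 73 (0.0642% of all genes were called), with 0 at an unadjusted p under 0.05 and 0 by DESeq2. Their median was 0.15, with 0.91 without WT 1, -0.21 without WT 2 and -0.23 without knockout 2. Rps28 (0.87, SE 0.45), Rps25 (0.79, SE 0.58), Rpl8 (0.74, SE 0.49), Rps10 (0.66, SE 0.41) and Rpl38 (0.64, SE 0.37) were the largest, and Rps23 (-0.72, SE 0.50), Rps6 (-0.70, SE 0.47) and Rpl10 (-0.67, SE 0.51) the lowest. With no overlap 4 members were higher and 3 lower, where 14.5% and 14.6% of all genes were. Rps6 had 23.2 and 28.6 CPM in WT 1 and 2 and 12.1 and 18.0 in knockout 1 and 2. The difference by label between adipocyte-like and progenitor-like nuclei was tested as an interaction: 0 of 76 members passed (0.214% of all genes did), 0 at an unadjusted p under 0.05 and 0 by DESeq2, with a median of -0.15, and 1 passed without WT 1.

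Dendritic-like nuclei gave the only member called by label. Rpsa had 163 and 113 CPM in the libraries labelled WT 1 and 2 and 470 and 521 in those labelled knockout 1 and 2 on the scale of this class alone, a log2 difference of 1.81 (SE 0.28, adjusted p = 0.0124, edgeR). Of 56 members tested, 1 passed (0.057% of all genes did), and 40 were higher with no overlap, against 18.4% of all genes. At an unadjusted p under 0.05, 27 members were higher, and no share over all genes is given here for that threshold. The median was 1.004, and 0.80 to 1.23 when a library was left out. The filter on low counts can keep a gene through the 2 libraries of 1 group alone, and without it 79 members were tested. The median and the 40 with no overlap thus describe only the members kept. The class held 436, 153, 91 and 119 nuclei in the 4 libraries, and its mitochondrial share was 1.93%, 1.89%, 3.75% and 2.39%, higher in the group labelled knockout as well. The part of that share in the result was not tested. DESeq2 also called Rpsa alone. The call was lost without the filter on low counts, among nuclei with at most 2% mitochondrial UMIs (log2 difference 1.12), with a replicate block and without WT 2, while 3 members were called without knockout 1. Over all alternatives its difference ran from 1.12 to 2.14.

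In luminal-like nuclei 0 of 78 members passed by label (0.0122% of all genes did), and DESeq2 called 0. At an unadjusted p under 0.05, 18 members were higher, again without a share over all genes at that threshold. The median was 0.67, and 35 members were higher with no overlap, against 14.4% of all genes. Without WT 1, 26 members were called, and the lone library labelled WT was then assumed to vary like the others. Rpl37 had 78.5, 50.5, 61.1 and 148 CPM in the 4 libraries, so its groups overlapped.

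The other 5 classes gave 0 called members with edgeR and with DESeq2. By edgeR, 0.0269% of all genes were called in T or NK-like, 0.037% in B-like and 0.0248% in macrophage-like nuclei. The share was 0.00954% in myoepithelial-like and 1.65% in vascular endothelial-like nuclei. Counts of higher members at an unadjusted p under 0.05 follow, without a share over all genes at that threshold. In T or NK-like nuclei 13 of 76 were higher, with a median of 0.57. B-like nuclei had 3 of 73 and a median of 0.44, macrophage-like 1 of 66 and 0.33. Myoepithelial-like nuclei had 4 of 70 and 0.39, and vascular endothelial-like 0 of 41 and 0.11. Members with no overlap and higher in the group labelled knockout numbered 24 of 76 in T or NK-like nuclei (10.2% of all genes), 24 of 73 in B-like (11.3%), 31 of 70 in myoepithelial-like (14.2%) and 18 of 66 in macrophage-like nuclei (13.2%). In vascular endothelial-like nuclei 5 of 41 did so, below the 19.6% of all genes.

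**Figure D5:**
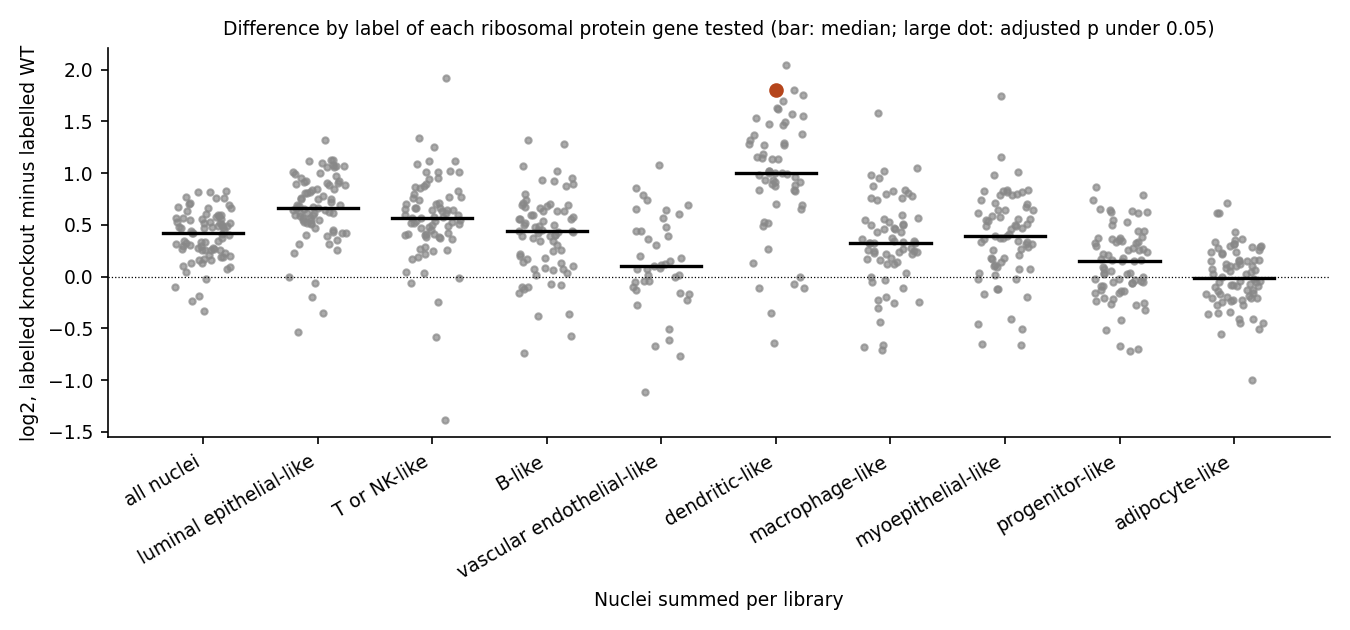
Log2 difference of each ribosomal protein gene tested, labelled knockout minus labelled WT (y axis), for all nuclei and for 9 classes (x axis). Small points are genes, bars are medians, and the large point is Rpsa in dendritic-like nuclei, the only gene with an adjusted p under 0.05. The median is 1.004 in dendritic-like, 0.67 in luminal epithelial-like and -0.01 in adipocyte-like nuclei.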

How the data were processed

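The authors deposited raw UMI counts per gene and barcode, 1 matrix per library. Per the labels' protocols, nuclei were prepared and barcoded with Singleron GEXSCOPE kits. The submitters' processing notes name the build GRCm38 (mm10) and Seurat 4.3.0. Aligner, intron and strand settings were not given in the sources used here. Members, lists and tests were chosen with earlier results of these data known.

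Nuclei were kept with at least 500 UMIs, 300 genes and at most 10% mitochondrial UMIs, with no doublet removal. Clusters (scanpy 1.11.5: 2000 variable genes, 30 components, 15 neighbours, Leiden resolution 1) took a name when at least 3 fixed markers were among the 100 leading genes. Leaving clusters led by Gm10800 unnamed was decided after seeing the data. Counts were summed per library, and per class with at least 50 nuclei in every library. After filterByExpr and TMM scaling, edgeR 4.0.16 tested the sums (quasi-likelihood, robust, two-sided), with the library as a block between classes. DESeq2 1.42.0 was an alternative. SE is the log2 difference over the square root of F. The library is the replicate, so p-values by label measure the spread between these 4 libraries. Between classes and in the interaction the library is a term of the fit. There p-values measure the spread of the sums that is left after that term. The tests were also run on simulated counts, and the outcome is not given here. Gene models are GENCODE M21, and near-identical genes were found with BLAST 2.17.0. All members were counted, and named members follow a rule of level, size of difference and role. Those named as holding no overlap were chosen after their values were seen. Values of some members are not reported here.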

Additional observations from a re-analysis of the deposited data

How the results depend on the processing

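The library labelled WT 2 was the shallowest at 8623219 UMIs, where 0 UMIs of a gene allows up to 0.348 CPM. In dendritic-like nuclei the count of members called by label, 1 as reported, was 0 with no filter on low counts, 0 with at most 2% mitochondrial UMIs, 0 with a replicate block and 0 to 3 with a library left out. In luminal-like nuclei, 0 as reported, it was 2 with no filter and 0 to 26 with a library left out. It was 0 to 1 with a library left out in vascular endothelial-like nuclei and for the interaction. The replicate block changed no other count of members. Libraries of the same number deviated in opposite directions (r = -0.66 over 28075 genes). A crossed replicate block, chosen after seeing the data, called 13 members in T or NK-like and 4 in dendritic-like nuclei. It called 0 in the other comparisons by label in which it was run. The labels give no such pairing, and it was taken from these same counts, so its calls are no support for a difference by label. No share over all genes is given for that block. The interaction was not run with a replicate block.

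Between classes, luminal-like and adipocyte-like counts stayed within 1.5 times under every alternative run. Without the library term the counts were 6 (B-like), 17 (T or NK-like), 0 (macrophage-like), 10 (myoepithelial-like), 13 (progenitor-like) and 0 lower (vascular endothelial-like). With at most 2% mitochondrial UMIs they were 5 higher (dendritic-like), 1 (macrophage-like), 10 (myoepithelial-like), 8 (progenitor-like) and 6 lower (vascular endothelial-like). Macrophage-like nuclei gave 5 with at least 1000 UMIs and 500 genes and 7 without nuclei of 5000 UMIs or more, another alternative chosen after seeing the data. Vascular endothelial-like nuclei gave 0 lower by DESeq2, 1 without nuclei of 5000 UMIs or more and 8 at resolution 0.5. With a library left out the counts were 7 to 16 (B-like), 15 to 49 (T or NK-like), 6 to 14 (dendritic-like), 4 to 7 (macrophage-like), 15 to 36 (myoepithelial-like), 21 to 37 (progenitor-like) and 0 to 3 lower (vascular endothelial-like). The cause of these changes was not tested.

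The adipocyte-like share was 0.182% with at least 1000 UMIs and 500 genes, 0.175% with at most 2% mitochondrial UMIs, 0.206% with pseudogene rows added and 0.217% without nuclei of 5000 UMIs or more. The vascular endothelial-like share was 0.270% with at most 2% mitochondrial UMIs. The mean share in the group labelled knockout was 0.366% with at most 2% mitochondrial UMIs and 0.365% without luminal nuclei.

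Single members changed sign as follows. Rpl36 in adipocyte-like nuclei was at -0.064 without the library term. In vascular endothelial-like nuclei Rps21 was at -0.028 and Rps25 at -0.11 with at most 2% mitochondrial UMIs, and Rps21 at -0.044 at resolution 0.5. With a library left out, differences by label ran from -0.83 to 0.73 (Rpl10a), -0.74 to 0.043 (Rpl15) and -0.72 to 0.11 (Rps6) in all nuclei, -0.048 to 0.77 in adipocyte-like nuclei (Rpl39) and -1.50 to 0.018 in progenitor-like nuclei (Rps23). Differences between classes ran from -0.24 to 0.62 for Rpl36 in adipocyte-like nuclei and from -0.10 to 0.40 for Rpl10 and -0.041 to 0.24 for Rps14 in macrophage-like nuclei.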
